A study of Mus musculus with 12 samples.

Results

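RNA bound to tagged ribosomes was compared with unbound RNA of the choroid plexus at 9 a.m., 2 h after lights on. The comparison used 6 of the 12 libraries of the series, 3 of RPL10A-associated RNA (TRAP, Translating Ribosomal Affinity Purification) and 3 of the supernatant left after the pull-down, and every gene with a mean FPKM above 1 over these 6 libraries, which gave 10796 genes of 24327 in the table. FPKM counts the fragments of a gene per unit of transcript length and of mapped reads, so every value is a relative level within its library. The mice were males that carried FoxJ1:cre and a floxed EGFP:L10a allele, each in 1 copy, and both TRAP and supernatant libraries came from these animals. They were aged 60 days per the labels and 8 weeks per the methods. Each library held the lateral ventricle (LV) choroid plexus (ChP) of 3 mice, and the labels number the libraries 1 to 3 in each fraction. Foxj1-Cre is active in cells that make motile cilia, such as ChP epithelium and ependyma, and is not known to act in stroma, vessels or immune cells. The supernatant holds RNA of every cell of the dissected tissue, together with RNA of epithelial cells that was not captured, so it is not a ribosome-free sample of the epithelium. Cre-negative animals were not analysed here.

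The ChP is a sheet of secretory epithelium around a vascular stroma, which makes cerebrospinal fluid and secretes proteins such as transthyretin into it. RPL10A is a protein of the large ribosomal subunit, and pulling down its EGFP-tagged form carries along the mRNAs on which such ribosomes sit. RNAs that act in the nucleus, or that are not translated, are the classic candidates for the unbound fraction, while mRNAs can be in both, in proportions set by how many of their copies carry ribosomes.

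The 9 a.m. libraries differed from one another within each fraction. On log2(FPKM + 1), correlations across genes were 0.58 to 0.70 between TRAP libraries, 0.55 to 0.64 between supernatant libraries and 0.51 to 0.74 between a TRAP and a supernatant library, so the fractions did not separate over the whole transcriptome. Genes above 1 FPKM numbered 6639 to 9883 in TRAP and 8082 to 10096 in the supernatant. TRAP replicate 3 had the fewest, and 105 of 2886 abundant genes (median FPKM above 20) were listed at 0 in it, against 2 to 40 in the other libraries. Counts of list members below are therefore given with and without TRAP replicate 3. Markers of the epithelium were read in both fractions. Their presence does not show which RNA came with tagged ribosomes. Ttr, which encodes transthyretin, had 20922 to 31302 FPKM in TRAP and 21463 to 37447 in the supernatant, and all 36 epithelial markers in the table passed the filter. Foxj1, the gene whose promoter drives Cre, had 37.9, 45.8 and 62.4 FPKM in TRAP and 42.8, 57.6 and 46.9 in the supernatant. Rpl10a was listed at 0 in TRAP replicate 3 and in supernatant replicates 2 and 3, and at 5.31 to 11.5 FPKM in the other libraries. It therefore gave no check of the tag.

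Of 10796 genes tested with limma on log2(FPKM + 1), 5 were called lower in TRAP (0.0463% of genes) and 0 higher (0%), at a Benjamini-Hochberg adjusted p under 0.05 and a log2 fold change beyond 0.3 in either direction. Without the adjustment, a p under 0.05 was reached by 312 genes that were lower and by 174 that were higher in TRAP. The 5 genes were the nuclear RNA Malat1, the RNase P RNAs Rpph1 and Rprl3, the microRNA gene Mir546 and the ferritin gene Fth1. A single one of these encodes a protein. Over the genes tested, the log2 fold change had a median of -0.20, with quartiles of -0.93 and 0.47, and it lay between -0.56 after rescaling to equal FPKM sums and -0.03 under quantile normalization. Fold changes of lists are read below against this median.

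A broader description counted genes whose 3 TRAP libraries all lay on one side of the 3 supernatant libraries, without a test. TRAP lay below in 734 genes (6.80% of those tested) and above in 351 (3.25%). Without TRAP replicate 3 the counts were 1082 below (9.98%) and 922 above (8.50%) of 10843 genes, and with any 1 library left out they were 1082 to 1673 below and 590 to 922 above. Fewer libraries separate more easily by construction. Counts of list members without TRAP replicate 3 are therefore read against 9.98% below and 8.50% above, and not against 6.80% and 3.25%. The share of separated genes with TRAP below was 67.6%, but 88.8% after rescaling to equal FPKM sums and 54.0% without TRAP replicate 3, so the balance of directions over the transcriptome depended on the scaling and on 1 library.

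**Figure D1:**
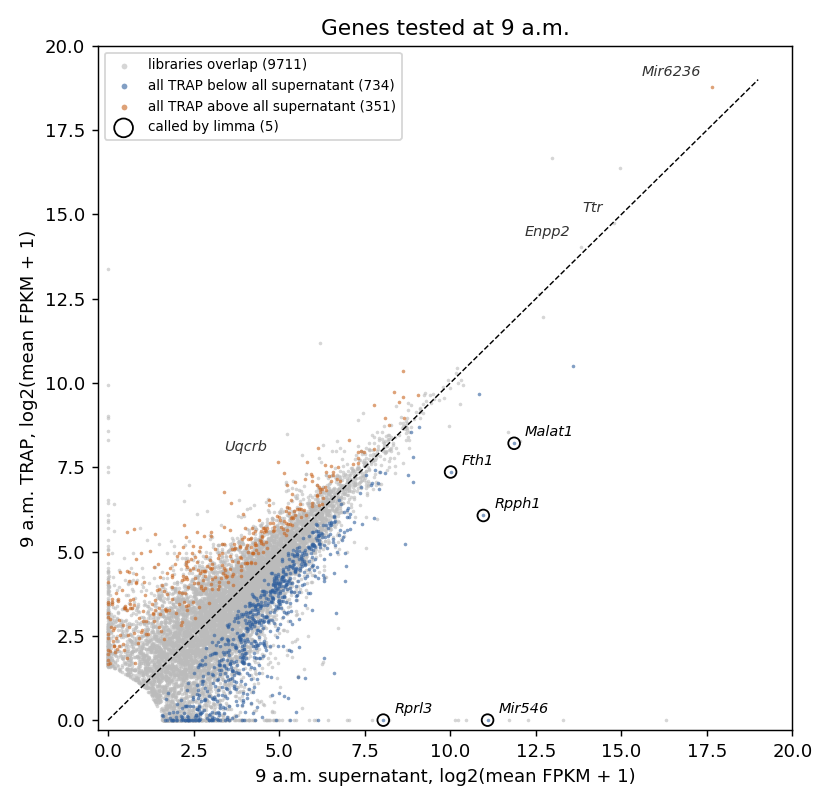
Mean FPKM in the 3 TRAP libraries (y axis) against the 3 supernatant libraries (x axis) at 9 a.m. for the 10796 genes tested, both as log2(mean FPKM + 1). Blue and orange points are the 734 and 351 genes whose libraries did not overlap, circles mark the 5 called genes, which lie below the dashed line of equal levels, and Ttr and Enpp2 lie on or near it.

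Malat1 is a long noncoding RNA kept in nuclear speckles. Its FPKM was 305, 271 and 311 in the TRAP libraries and 4035, 3513 and 3659 in the supernatant libraries. The groups were far apart and the libraries of each group close together. The means were 296 ± 21.9 and 3736 ± 269 (SD, n = 3 each), for a log2 fold change of -3.66 ± 0.25 (SE, limma, adjusted p = 1.96e-05). The gene lies on the minus strand of mm10 at chr19:5795690-5802672. Neat1, the scaffold of nuclear paraspeckles, had 29.9, 39.9 and 20.1 FPKM in TRAP and 114, 148 and 98.0 in the supernatant. Its libraries did not overlap either, but it was not called (log2 fold change -2.0, limma, adjusted p = 0.324). The list of nuclear long noncoding RNAs held 6 genes that passed the filter, all with a negative log2 fold change (median -0.46, against -0.20 for all genes), and TRAP lay below in Malat1 and Neat1 (33.3%, against 6.80% of all genes) and above in 0. Without TRAP replicate 3 it lay below in 3 of the 6 and the median was -1.30, while without supernatant replicate 1 the median was -0.19. Cytoplasmic long noncoding RNAs and snoRNA host genes, listed beside them, had a lower median of -1.15 over 7 genes, but TRAP lay below in 0 and above in 0, also without TRAP replicate 3, and the median was -0.06 without supernatant replicate 3. Summed over the 12 list members in the table other than Malat1, FPKM was 68.3, 59.0 and 47.0 in TRAP and 147, 162 and 128 in the supernatant. Tug1, which occurs in both nucleus and cytoplasm, overlapped between fractions (10.1 to 33.0 and 9.77 to 22.7 FPKM).

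RNase P is the enzyme that trims the leader from precursor tRNAs, and Rpph1 encodes its catalytic RNA. Rpph1 had 43.5, 67.7 and 87.5 FPKM in TRAP and 1845, 1409 and 2749 in the supernatant. The lowest supernatant library was far above the highest TRAP library, and the log2 fold change was -4.90 ± 0.35 (SE, limma, adjusted p = 2.29e-05). It lies on the minus strand at chr14:50807449-50807767, where most of it overlaps the coding gene Ccnb1ip1 on the same strand, which was itself listed at 0 in all 6 libraries. Rprl3, an RNase P RNA-like gene at chr8:3803069-3803358, was listed at 0 in every TRAP library and at 235, 39.4 and 514 FPKM in the supernatant (limma, adjusted p = 0.0106). Without supernatant replicate 1 or 3 this call was lost (adjusted p = 0.302 and 0.345, limma). Rpph1 and Rprl3 are copies of related sequence: 88.2% of 279 aligned bases were identical, and no stretch of 50 bases, the read length, was shared. How the authors' counting split reads between such copies is not stated, so both values are uncertain. Rmrp, the RNA of the related enzyme RNase MRP, served as a contrast within this group. Its FPKM was 136, 103 and 191 in TRAP and 103, 161 and 193 in the supernatant, with overlapping groups (log2 fold change -0.08, limma, adjusted p = 0.979). Of 7 small structured RNAs tested, TRAP lay below in 3 (42.9%, against 6.80% of all genes) and above in 0 (against 3.25%), with a median log2 fold change of -2.05. The 3 were Rpph1 and Rprl3, which were called, and the Cajal body RNA Scarna13. The counts were the same without TRAP replicate 3, where the shares of all genes were 9.98% below and 8.50% above.

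**Figure D2:**
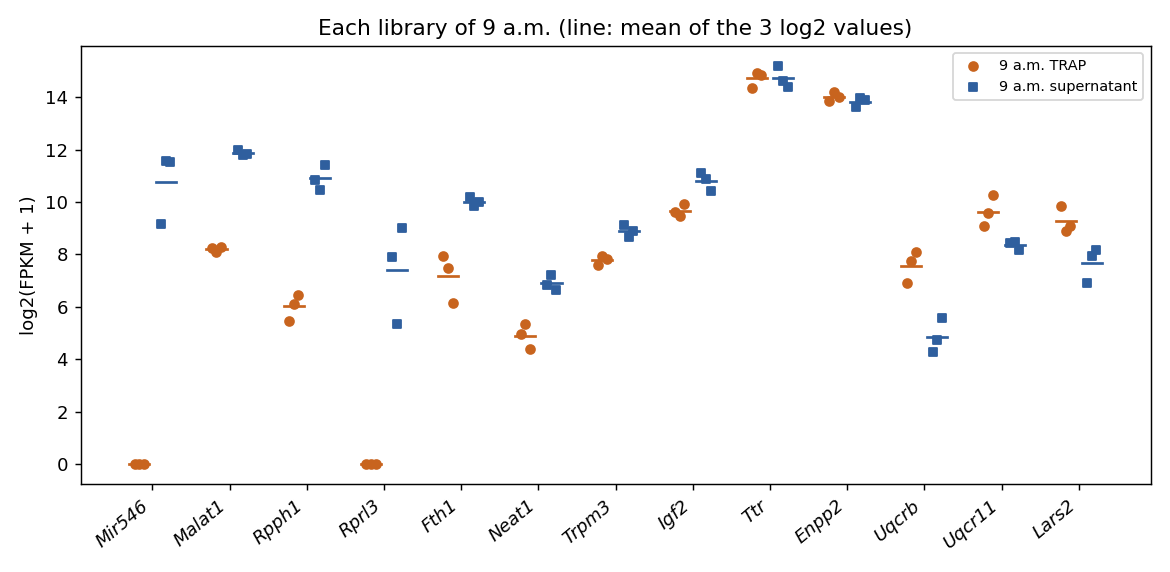
log2(FPKM + 1) of 13 genes in each of the 3 TRAP libraries (orange circles) and 3 supernatant libraries (blue squares) of 9 a.m., with a line at the mean of each group. Malat1 and Rpph1 form tight, separate groups, Fth1 is spread in TRAP, Ttr and Enpp2 overlap, and Uqcrb, Uqcr11 and Lars2 lie higher in TRAP in all 3 libraries.

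Mir546 was listed at 0 in TRAP replicates 1 and 3 and below 1e-06 FPKM in replicate 2, and had 572, 3026 and 2945 FPKM in the supernatant (limma, adjusted p = 6.37e-06). The row covers the hairpin on the plus strand at chr10:126998440-126998560, which lies in an exon of Ctdsp2, outside its coding sequence and beyond its end. Reads of Ctdsp2 mRNA and of the hairpin cannot be told apart there. Ctdsp2 itself, which encodes a phosphatase of RNA polymerase II, had 5.23 to 16.6 FPKM in TRAP and 0.409 to 11.5 in the supernatant, with overlapping groups. The library kit captures longer RNA, so these rows do not measure mature microRNAs. FPKM divides by length, so a short locus reaches a higher FPKM than a long one from the same number of reads. The numbers of reads are not known. The mature sequences of this and of the 2 microRNA rows that lay higher in TRAP are given to show that they share no seed. Capitals mark the seed, bases 2 to 8, and the sequences are from RefSeq on GRCm38.p6, the assembly of mm10.
mmu-miR-546: aUGGUGGCacggaguc
mmu-miR-6236: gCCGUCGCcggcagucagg
mmu-miR-6240: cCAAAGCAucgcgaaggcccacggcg
Mir6236, whose row covers chr9:110281287-110281409, was the most abundant row of the table, with 541166, 269195 and 536667 FPKM in TRAP and 180187, 254923 and 180755 in the supernatant. TRAP lay above in every library, by little in replicate 2 (log2 fold change 1.08, limma, adjusted p = 0.886). Mir6240, whose row covers chr5:114851948-114852064, had 1629, 608 and 1673 FPKM in TRAP and 385, 341 and 444 in the supernatant (log2 fold change 1.61, limma, adjusted p = 0.521). Lars2, which encodes the leucyl-tRNA synthetase of mitochondria, also lay above in each TRAP library, with 924, 476 and 535 FPKM in TRAP and 120, 241 and 288 in the supernatant (log2 fold change 1.6, limma, adjusted p = 0.528). Rn45s, the precursor of ribosomal RNA, was listed at 0 in 3 of the 6 libraries and at 6839 to 19195 FPKM in the others, in no order by fraction.

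Summed over annotated classes, the FPKM of long noncoding genes separated the fractions. Their FPKM summed to 1827, 1465 and 1976 in TRAP and 6254, 5418 and 5832 in the supernatant (exact permutation test, two-sided, p = 0.1, which is the lowest a design of 3 against 3 can reach). Malat1 made up most of the gap, but without it the sums were still 1521, 1194 and 1665 against 2219, 1905 and 2173, with no overlap. Gene by gene, the 211 long noncoding genes tested had a median log2 fold change of -0.68, against -0.20 for all genes. Of the 211, 74 were positive, against 41.8% of all genes. The shares without overlap were not larger than those of all genes. TRAP lay below in 9 (4.27%, against 6.80% of all genes) and above in 2 (0.948%, against 3.25%). As a share of all FPKM, long noncoding genes held 0.180% ± 0.0093 in TRAP and 0.850% ± 0.205 in the supernatant (SD, n = 3). Other small RNAs, among them the RNase P RNAs, held 0.00784% ± 0.00346 and 0.322% ± 0.0980. Coding genes summed to 300095 ± 38737 FPKM in TRAP and 310270 ± 32781 in the supernatant, with overlapping libraries (exact permutation test, p = 0.8). MicroRNA genes held 54.5% to 75.4% of FPKM in TRAP and 36.5% to 64.2% in the supernatant (exact permutation test, p = 0.2). The overlap came from supernatant replicate 3, in which Mir7686 was listed at 245008 FPKM, while it was at 0 in the other 5 libraries. With that row left out, the supernatant shares were 36.5% to 52.8%, below all TRAP shares (exact permutation test, p = 0.1). Mir5114, which was kept, was also uneven, at 168884, 144014 and 0 FPKM in TRAP and 0, 0 and 24386 in the supernatant. Shares without Mir5114 were not computed, so this separation depends on the row left out and is not read as a trait of the class. Small nucleolar RNAs were erratic: Snord91a was listed at 32311 FPKM in TRAP replicate 2 and at 0 elsewhere, and Snord104 at 14864 FPKM in supernatant replicate 2 and at 0 elsewhere.

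Fth1 encodes the heavy chain of ferritin, the protein shell in which cells store iron, and was the one coding gene called. It had 243, 178 and 69.4 FPKM in TRAP and 1152, 916 and 1023 in the supernatant. Its supernatant libraries lay close together, and the TRAP libraries were spread more widely, with replicate 3 the lowest. The log2 fold change was -2.82 ± 0.41 (SE, limma, adjusted p = 0.0300). Without TRAP replicate 3 it was -2.30 (adjusted p = 0.0342, limma), and the call was lost without supernatant replicate 1, 2 or 3 (adjusted p = 0.244, 0.134 and 0.203, limma). Fth1 lies on the plus strand at chr19:9980598-9985098. Translation of ferritin mRNAs is known to be held back at low iron by proteins that bind an iron-responsive element, a hairpin with the loop CAGTG in the 5′ untranslated region. The element of both ferritin mRNAs is shown to give the reader the sequence on which this control acts. Capitals mark the 6 bases of the loop, in 30-base stretches from GENCODE M21 transcripts on GRCm38.
Fth1-201: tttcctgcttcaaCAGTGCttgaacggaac
Ftl1-201: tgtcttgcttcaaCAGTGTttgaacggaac
The first spans chr19:9982731-9982760 on the plus strand and the second chr7:45459779-45459808 on the minus strand. Ftl1, the ferritin light chain, had 51.9, 53.5 and 111 FPKM in TRAP and 256, 93.1 and 75.3 in the supernatant, with overlapping groups (log2 fold change -0.84, limma, adjusted p = 0.886). The letters CAGTG, searched on the sense strand, occurred in 2906 of the 10064 5′ untranslated regions of tested genes (28.9%). The median log2 fold change of those genes was -0.19, the same as for all genes with such a region, and the letters alone do not make an element.

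Of 24 genes for iron handling tested, TRAP lay below in 5 (20.8%, against 6.80% of all genes) and above in 0 (3.25% of all genes), with a median log2 fold change of -0.24. Besides Fth1 these were Tfrc, Cp, Pcbp2 and Steap4, and none of these 4 passed the test (limma, adjusted p = 0.886 for each). Pcbp2, a poly(C)-binding protein and iron chaperone, had 69.4, 73.6 and 51.8 FPKM in TRAP and 108, 100.4 and 79.3 in the supernatant. Tfrc, the transferrin receptor, had 1.68, 1.70 and 0 in TRAP and 10.7, 5.58 and 5.65 in the supernatant. Trf, transferrin itself, overlapped (119 to 358 and 134 to 162 FPKM). Without TRAP replicate 3 the count was 6 below and 0 above. Ferritin is also made by macrophages, stroma and glia, and the summed markers of these cells lay higher in each supernatant library, as given below. Their part in the values of Fth1 was not tested.

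Among coding genes that were not called, the lowest p-values with TRAP below belonged to Pebp1 (2.61, 5.07 and 0 FPKM in TRAP, 85.0, 105 and 45.0 in the supernatant; limma, adjusted p = 0.123), an inhibitor of Raf kinase. Ddrgk1, a protein of the ER that takes part in UFMylation, followed with 7.11, 30.5 and 12 FPKM in TRAP and 173, 112 and 73.3 in the supernatant (limma, adjusted p = 0.267). Cdr1 came next (limma, adjusted p = 0.267), at 12.3, 4.43 and 91.6 FPKM in TRAP, and is described below with the neuronal and glial genes. Mrpl52, of the large subunit of the mitochondrial ribosome, had 0, 0.541 and 0 FPKM in TRAP and 24.3, 76.9 and 29.8 in the supernatant (limma, adjusted p = 0.267). The noncoding gene 1300002E11Rik, which overlaps Map3k13 on the same strand, had 0, 4.98 and 0 FPKM in TRAP and 110, 133 and 46.3 in the supernatant (limma, adjusted p = 0.0789). Pebp1, Mrpl52 and 1300002E11Rik were at 0 to 5.07 FPKM in TRAP, while Ddrgk1 and Cdr1 each had a TRAP library above 30 FPKM.

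In the opposite direction the lowest adjusted p was 0.106, for Uqcrb, a subunit of complex III of the respiratory chain. It had 118, 212 and 271 FPKM in TRAP and 18.5, 25.3 and 46.2 in the supernatant, for a log2 fold change of 2.72 ± 0.46 (SE, limma). The groups were well apart, and with robust empirical Bayes it was called (adjusted p = 0.0236, limma, in a range of 0.0236 to 0.821 over its alternatives). Next came Timm50, of the import channel of the inner mitochondrial membrane, with 57.8, 34.5 and 42.2 FPKM in TRAP and 1.79, 0 and 2.95 in the supernatant (limma, adjusted p = 0.279). Jtb, a transmembrane protein, had 14.2, 58.6 and 78.4 FPKM in TRAP and 0, 0 and 2.06 in the supernatant (limma, adjusted p = 0.375). Mrps24, of the small subunit of the mitochondrial ribosome, had 21, 22 and 97.5 FPKM in TRAP and 0, 0 and 1.39 in the supernatant (limma, adjusted p = 0.406). The remaining genes of the 10 with the lowest p were Mir6240, Lars2, the peroxisomal hydrolase gene Nudt7, the glutaredoxin gene Glrx3, Uqcr11 and Prr13, at adjusted p of 0.521 to 0.605.

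Nuclear genes of oxidative phosphorylation, which encode most subunits of the respiratory chain and of ATP synthase, had a median log2 fold change of 0.22, against -0.20 for all genes. TRAP lay above in 7 of 76 (9.21%, against 3.25% of all genes) and below in 0 (6.80% of all genes), and 0 of the 76 were called. Without TRAP replicate 3, TRAP lay above in 11 and below in 1 of 76, where the shares of all genes were 8.50% above and 9.98% below. The 7 were Uqcrb, Uqcr11 and Uqcrfs1 of complex III, Ndufs7 and Ndufa10 of complex I, Cox4i1 of complex IV and Atpif1, the inhibitor of ATP synthase. Uqcr11 had 535, 757 and 1236 FPKM in TRAP and 345, 351 and 284 in the supernatant. Cox4i1 had 486, 832 and 771 in TRAP and 282, 396 and 407 in the supernatant. Atpif1 had 97.9, 86.4 and 191 in TRAP and 32.6, 48.6 and 27.7 in the supernatant. By complex, the median log2 fold change was 0.22 for 34 genes of complex I, 0.43 for 4 of complex II, 0.57 for 9 of complex III, -0.29 for 13 of complex IV and 0.16 for 15 of complex V. The genes of highest level did not all follow this order. Atp5k had 129, 1762 and 2280 FPKM in TRAP and 1182, 1371 and 951 in the supernatant, and Cox6c and Atp5j overlapped. With 1 library left out, the median of the 76 genes ran from -0.03 to 0.43. Genes encoded by mitochondrial DNA were not analysed here.

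Genes of the translation machinery lay in both directions. For 53 of 79 cytosolic ribosomal protein genes that passed the filter the median log2 fold change was -0.12, and TRAP lay below in 6 (11.3%, against 6.80% of all genes) and above in 2 (3.77%, against 3.25%). The counts were 6 below and 5 above of 51 without TRAP replicate 3. Rpl35a had 33.2, 157 and 16.2 FPKM in the supernatant and was at 0 in TRAP. Rps9 had 34.7, 65.7 and 45.1 in TRAP and 93.9, 152 and 131 in the supernatant, and Rpl13a, one of the 4 most abundant, had 152, 143 and 92.1 in TRAP and 366, 162 and 174 in the supernatant. The other three of these, Rpl41, Rpl32 and Rpl8, overlapped. These genes have many processed pseudogenes, and 13 of the 79 were listed at 0 in all 6 libraries, so their values are uncertain. Of 46 translation factors, TRAP lay below in 2 (Pabpc1 and Eif4b, 4.35%) and above in 1 (Eif3m, 2.17%), both shares under those of all genes, with a median of -0.20. With TRAP replicate 3 left out the counts were 4 below and 4 above. Pabpc1, the poly(A)-binding protein, had 12.5, 24.5 and 17.6 FPKM in TRAP and 75.7, 61.7 and 59.4 in the supernatant (log2 fold change -1.83, limma, adjusted p = 0.683). Eef1a1, Eef2, Eif4g2 and Eif3c overlapped. Mitochondrial ribosomal proteins gave 4 below (5.41%, against 6.80% of all genes) and 2 above (2.70%, against 3.25%) of 74, with a median of -0.05. They gave 5 and 5 without TRAP replicate 3, and their median ran from -0.68 to 0.51 with 1 library left out.

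The median log2 fold change of the 36 markers of ChP epithelium was -0.07. TRAP lay below in 2 (Igf2 and Tmem72, 5.56%, against 6.80% of all genes) and above in 1 (Cldn1, 2.78%, against 3.25%), shares near those of all genes, and without TRAP replicate 3 below in 4 and above in 2. Enpp2, the secreted lysophospholipase autotaxin, had 14886 to 18732 FPKM in TRAP and 12755 to 15966 in the supernatant. Kcnj13, Clic6, Kl, Folr1 and Otx2 overlapped between fractions. Igf2, a growth factor made by the ChP, had 794, 708 and 965 FPKM in TRAP and 2205, 1893 and 1357 in the supernatant (log2 fold change -1.13 ± 0.28, SE; limma, adjusted p = 0.605). Cldn1, a tight junction protein, had 94.4, 63.9 and 52.2 in TRAP and 45.3, 24 and 43.7 in the supernatant. Of 30 ion and water transporters, TRAP lay above in 2 (6.67%, against 3.25% of all genes), among them Kcne2. It lay below in 1 (3.33%, against 6.80%), Trpm3, and the median was -0.04. Without TRAP replicate 3 it lay above in 3 and below in 1. Trpm3, a cation channel gene that hosts microRNA genes in its introns, had 193, 246 and 223 FPKM in TRAP and 551, 403 and 479 in the supernatant (log2 fold change -1.11, limma, adjusted p = 0.605). Kcne2, a potassium channel subunit, had 402, 556 and 340 in TRAP and 328, 240 and 309 in the supernatant.

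Of 36 genes for secreted proteins, TRAP lay below in 4 (Igf2, Cp, Timp2 and Spp1, 11.1%, against 6.80% of all genes) and above in 1 (Epdr1, 2.78%, against 3.25%), with a median log2 fold change of -0.19, next to that of all genes. Leaving out TRAP replicate 3 gave 5 below and 3 above. Spp1 and Cp were low, at 0 to 1.86 FPKM in TRAP and 3.12 to 32.6 in the supernatant, and both are also made by stromal or immune cells. Timp2, an inhibitor of matrix proteases, had 192, 187 and 130 in TRAP and 205, 262 and 204 in the supernatant. Apoe overlapped. For the ER, through which secreted proteins pass, TRAP lay below in 2 of 46 genes (Srp72 and Srpr, of the signal recognition particle and its receptor) and above in 2 (Rpn1 and Stt3b, of the oligosaccharyltransferase). These were 4.35% each way, against 6.80% of all genes below and 3.25% above. Without TRAP replicate 3 it lay below in 3 and above in 2. The ER chaperones Calr, Hsp90b1, Hspa5 and Canx overlapped. Of 48 cytosolic chaperone and proteasome genes, TRAP lay below in Hspe1 and Psmd12 (4.17%) and above in Psmd4 (2.08%), both shares under those of all genes. Without TRAP replicate 3 it lay below in 4 and above in 6. Psmd4, a ubiquitin receptor of the proteasome, had 183, 216 and 169 FPKM in TRAP and 72.8, 61.5 and 107 in the supernatant (log2 fold change 1.26, limma, adjusted p = 0.730).

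Core clock genes gave no separation beyond Hlf (4.55% below, against 6.80% of all genes, and 0 above, against 3.25%). Hlf had 8.41, 5.08 and 9.92 FPKM in TRAP and 17.7, 16.2 and 11.5 in the supernatant. The median of the clock list was 0.05 over 22 genes. TRAP lay below in 3 and above in 1 of 21 without TRAP replicate 3. Immediate early genes, whose mRNAs are made within minutes of a stimulus, had a median of 1.23 over 11 genes, and 9 of the 11 were positive. Their levels were low: the 23 list members summed to 75.3, 34.5 and 61.0 FPKM in TRAP and 21, 10.8 and 31 in the supernatant. Among the tested genes the libraries of Jun alone did not overlap (4.53, 3.89 and 4.59 against 1.65, 3.25 and 1.46 FPKM). That was 9.09% above, against 3.25% of all genes, and 0 below, against 6.80%. The counts without TRAP replicate 3 were 3 above and 0 below of 9. Fos was listed at 0 in all 6 libraries, and Egr1 went the other way, at 0 in TRAP and 1.10 to 1.96 FPKM in the supernatant, below the filter. Of 17 histone genes tested, whose mRNAs lack a poly(A) tail, TRAP lay above in Hist1h4h (5.88%, against 3.25% of all genes) and below in 0 (against 6.80%). The counts were 3 and 0 without TRAP replicate 3. The median was 0.44 and ran from -0.56 to 1.25 with 1 library left out. Genes that the study singled out of its ribosome-bound RNA between times, Itgb8, Slc7a8, Cdh3, Abcf3, Snx12 and Chmp1b, overlapped between fractions at 9 a.m., with log2 fold changes of -0.30 to 1.32.

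**Figure D3:**
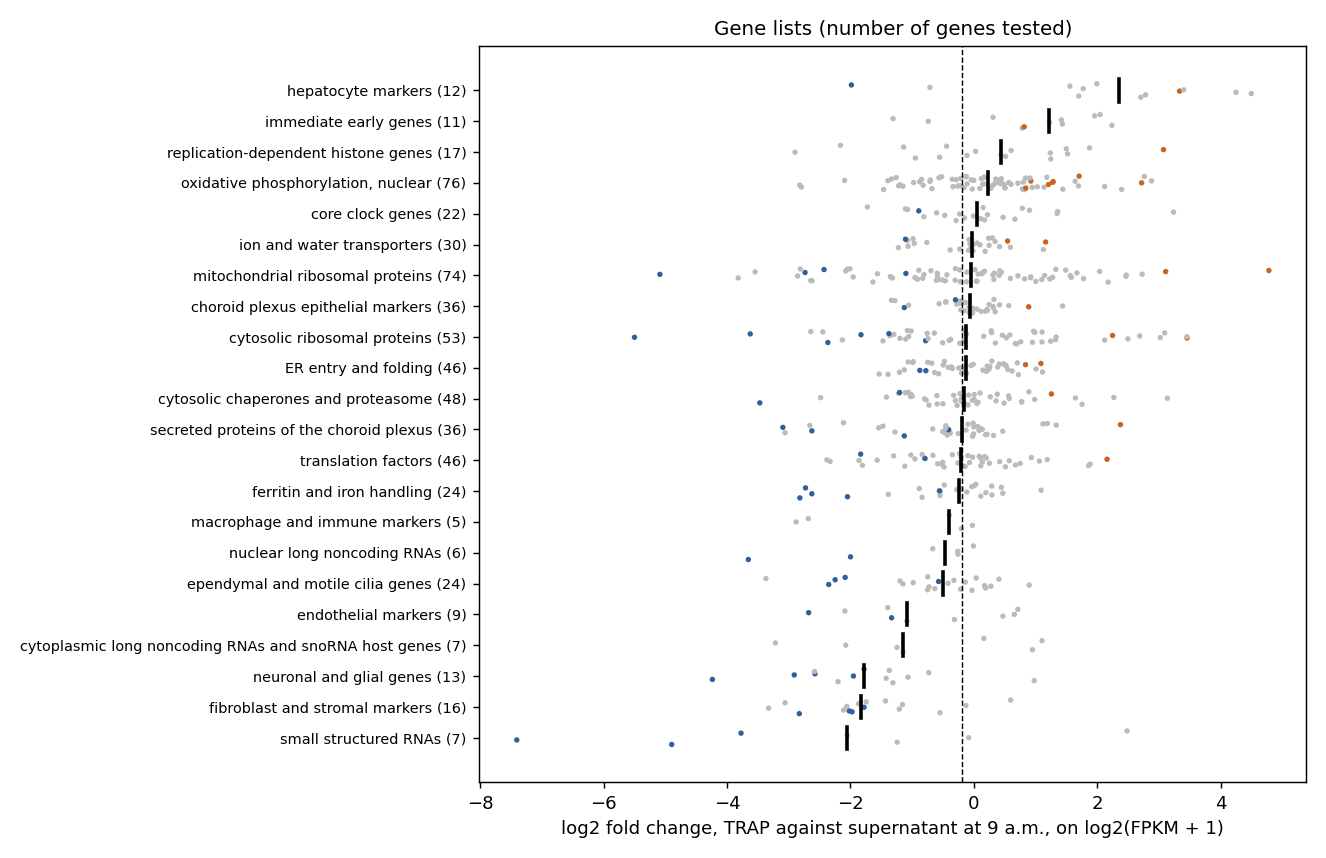
log2 fold change of TRAP against supernatant at 9 a.m. for the tested members of 22 gene lists, with the number tested in brackets. Points are genes, blue where TRAP lay below and orange where it lay above in all libraries, black bars are list medians and the dashed line is the median of all genes, -0.20. Stromal, neuronal and small structured RNA lists lie to its left, and oxidative phosphorylation slightly to its right.

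Summed markers of stromal, macrophage, and neuronal and glial cells, which are not known to express the Cre driver, lay lower in every TRAP library than in any supernatant library. TRAP and supernatant were fractions of the same kind of dissected tissue. A lower sum in TRAP therefore measures neither the number of such cells nor their RNA per cell, and its cause was not tested. Of 16 fibroblast and stromal markers tested, 15 had a negative log2 fold change (median -1.82), TRAP lay below in 4 (Col1a1, Col3a1, Col6a1 and Pdgfra, 25%, against 6.80% of all genes) and above in 0 (against 3.25%), and 0 were called. It lay below in 5 and above in 0 without TRAP replicate 3. The 21 markers summed to 23.2, 92.3 and 29.5 FPKM in TRAP and 440, 173 and 132 in the supernatant, so that no library of one group reached the other. Col1a1, the chain of type I collagen, had 0, 0.476 and 0 FPKM in TRAP and 6.66, 13 and 3.94 in the supernatant. Mgp, a matrix protein of vessels and stroma, was listed at 0, 16.8 and 0 in TRAP and at 243, 0 and 72.7 in the supernatant. Endothelial markers summed to 8.30 to 30.3 FPKM in TRAP and 13 to 153 in the supernatant, and the groups overlapped. TRAP lay below in 2 of 9 tested (22.2%, against 6.80% of all genes) and above in 0 (against 3.25%), and in 2 and 0 of 10 without TRAP replicate 3. These were Eng, which read 15.8, 2.05 and 4.14 FPKM in the supernatant and 0 in TRAP, and Flt1, at 0 to 0.445 FPKM in TRAP against 0.600 to 5.29. Of the defining genes that overlapped, Cdh5 was at 0 to 0.357 FPKM in TRAP and at 12.9, 0 and 0 in the supernatant. Kdr had 2.04, 7.75 and 0.435 FPKM in TRAP and 8.36, 0 and 6.86 in the supernatant (log2 fold change -0.32). Of the 9 endothelial markers tested, 6 were negative and 3 positive. Their median of -1.09 became 0.06 without supernatant replicate 1. Macrophage markers summed to 0.843, 17 and 4.36 FPKM in TRAP and 139, 34.3 and 21.6 in the supernatant, and Ptprc and C1qa were at 0 throughout TRAP. All 5 tested were negative, but TRAP lay below in 0 (against 6.80% of all genes) and above in 0 (against 3.25%). The counts were also 0 and 0 of 6 without TRAP replicate 3. Csf1r had 0.0695, 2.52 and 0.178 FPKM in TRAP and 0.475, 0 and 3.59 in the supernatant. Cx3cr1 had 0, 2.19 and 3.22 in TRAP and 13.1, 0 and 0 in the supernatant. Hemoglobin genes were at or below 1.09 FPKM in each of the 6 libraries.

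Neuronal and glial genes had a median log2 fold change of -1.78 over 13 genes, 12 of them negative, with TRAP below in 5 (38.5%, against 6.80% of all genes) and above in 0 (7 and 0 without TRAP replicate 3). Pdgfra is in this list and in the stromal one. The list summed to 22.3, 30.8 and 191 FPKM in TRAP and 286, 633 and 660 in the supernatant. Much of this was Cdr1, with 12.3, 4.43 and 91.6 FPKM in TRAP and 158, 524 and 540 in the supernatant (log2 fold change -4.24, limma, adjusted p = 0.267). Cdr1 lies opposite the noncoding gene C230004F18Rik, and without a stated strand setting the strands cannot be told apart. Without Cdr1 the sums were 10, 26.4 and 99.8 in TRAP and 128, 109 and 121 in the supernatant, still apart. The glutamate transporters Slc1a2 and Slc1a3 of astrocytes lay below in TRAP, at 0 to 1.55 FPKM against 3.38 to 18. Ciliary genes, which belong to ependyma and to the Cre-expressing lineage itself, had a median of -0.49 over 24 genes (-0.19 without TRAP replicate 3). TRAP lay below in 4 (Ccdc151, Cfap43, Cfap52 and Ak7, 16.7%, against 6.80% of all genes) and above in 0 (against 3.25%). The counts were the same without TRAP replicate 3, where the shares of all genes were 9.98% below and 8.50% above. The ciliary list summed to 698, 813 and 588 FPKM in TRAP and 1275, 895 and 809 in the supernatant, so the groups overlapped narrowly. Rsph1, the most abundant, overlapped. The part that other cell types in the supernatant had in any difference between fractions was not tested.

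Hepatocyte genes, listed as markers of another tissue, had a positive log2 fold change in 10 of 12 tested, but their sums overlapped between fractions. The 28 list members summed to 260, 42.6 and 1866 FPKM in TRAP and 124, 56.8 and 15.6 in the supernatant. TRAP replicate 3 was far above all others, with 902 FPKM of Apoc1, 365 of Apoa2, 171 of Alb and 156 of Apoc3. The median of 12 tested genes was 2.35, and 1.20 without TRAP replicate 3. TRAP lay above in Ahsg (8.33%, against 3.25% of all genes) and below in Tat (8.33%, against 6.80%), and without TRAP replicate 3 above in 1 and below in 1 of 9.

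**Figure D4:**
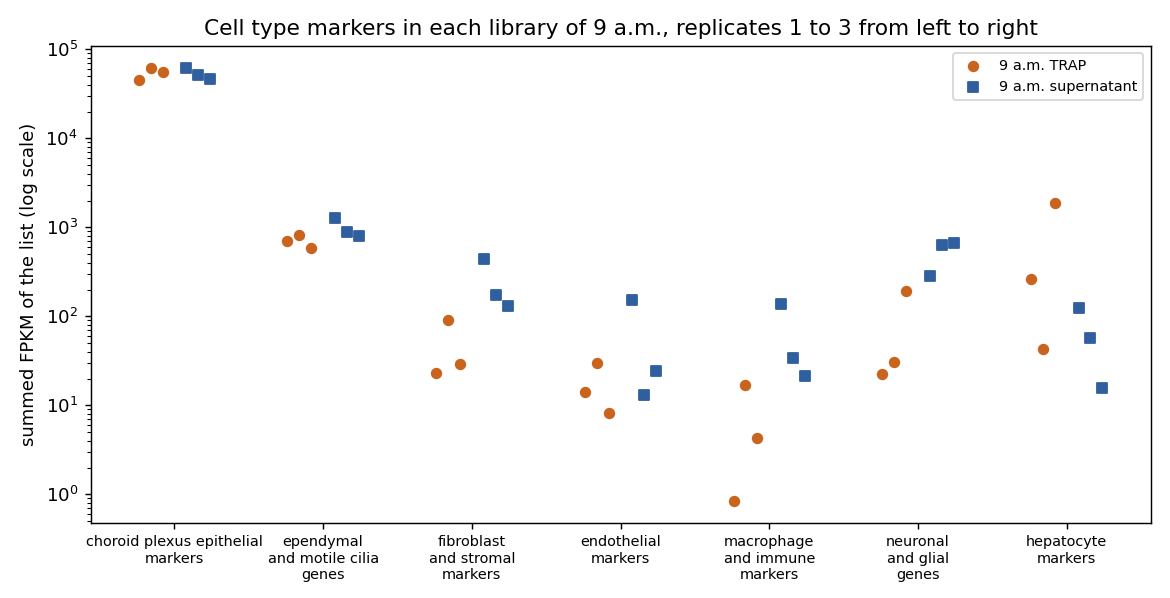
Summed FPKM (log axis) of 7 lists of cell type markers in each library of 9 a.m., TRAP as orange circles and supernatant as blue squares. Epithelial sums overlap at 44685 to 62318 FPKM, stromal, macrophage and neuronal sums lie lower in TRAP without overlap, and the hepatocyte sum of TRAP replicate 3 stands at 1866.

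Coding genes were also ordered by length, the summed length of their annotated exons, and cut into 10 groups of about equal size. In the shortest group (216 to 1911 bases) TRAP lay below in 3.84% and above in 3.94% of 1016 genes. In the longest group (10338 bases and over) TRAP lay below in 13.2% and above in 3.55% of 1015 genes. The share below was larger with each step but 2. It ran from 4.53% to 14.8% for genes with a mean FPKM above 5, and from 5.48% to 17.6% without TRAP replicate 3. The gap between longest and shortest groups was 9.36 percentage points, and 10.1 to 18.2 with 1 library left out. The spread between libraries of a group moved with length too: the median SD on log2(FPKM + 1) was 1.71 in the shortest group and 0.722 in the longest, and its part in the trend was not tested. Among separated genes alone, TRAP was the lower fraction in 49.4% of those in the shortest group and in 78.8% of those in the longest. The median log2 fold change moved little, from -0.05 to -0.28, and without TRAP replicate 2 the order of the medians was the reverse (-0.65 in the shortest and -0.36 in the longest group).

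**Figure D5:**
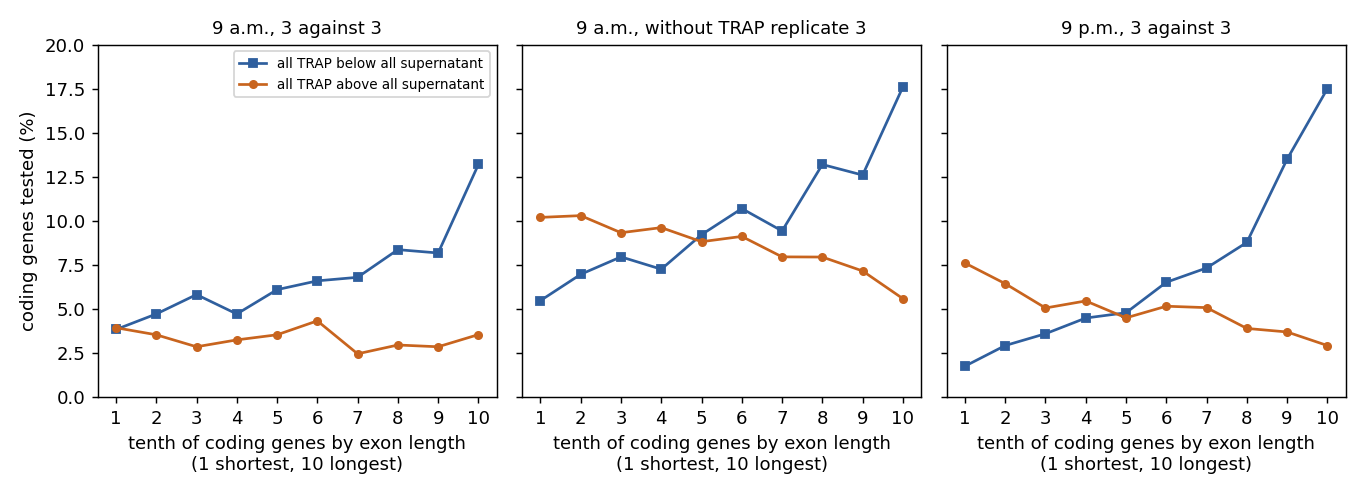
Percent of coding genes whose TRAP libraries all lay below (blue squares) or all above (orange circles) the supernatant libraries, in 10 groups by exon length, for 9 a.m., for 9 a.m. without TRAP replicate 3 and for the separate libraries of 9 p.m. The share below is highest in the longest group in each panel, at 13.2%, 17.6% and 17.5%.

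The libraries of 9 p.m. took no part in defining the 2 sets of separated genes, so they were read as a second set of samples. At 9 p.m., TRAP lay below in 7.00% and above in 4.90% of 10924 genes. Of the 734 genes with TRAP below at 9 a.m., 710 were tested at 9 p.m., and TRAP lay below in 130 of them (18.3%) and above in 23 (3.24%). Of the 351 genes with TRAP above at 9 a.m., 344 were tested, and TRAP lay above in 45 (13.1%) and below in 11 (3.20%). Since the share below also went with length at 9 p.m. (1.76% to 17.5%), the overlap was set against coding genes of the same length groups. TRAP lay below again in 18.2% of 672 coding genes, against 8.88% of coding genes of the same lengths, and above again in 12.7% of 332, against 5.05%.

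Gene by gene, Malat1 had a log2 fold change of -4.07 at 9 p.m. (limma, adjusted p = 6.12e-04), Rpph1 -3.64 (adjusted p = 0.231), Rprl3 -5.86 (adjusted p = 0.118) and Fth1 -0.64 (adjusted p = 0.818). The libraries of Malat1, Rpph1 and Rprl3 did not overlap at 9 p.m. either, while those of Fth1 did. Neat1 (-2.45), Cdr1 (-4.11, limma, adjusted p = 0.00285), Trpm3 (-1.22) and Igf2 (-0.96) had negative values at both times, and Mir6240, Lars2 and Mir6236 lay above in TRAP at both. Other named genes changed sign. Of the 10 genes of lowest p with TRAP below at 9 a.m., 5 had a negative value at 9 p.m., and Pebp1 (1.29), Ddrgk1 (0.12), Mrpl52 (2.80), 1300002E11Rik (1.09) and Mir546 (4.56) had positive ones. TRAP lay below again in 4 of the 10. Of the 10 with TRAP above, Prr13 (-0.64) turned negative, and TRAP lay above again in 2 (Mir6240 and Lars2). The difference between times was tested as an interaction over all 12 libraries and 11156 genes, and 1 gene was called (0.00896%), Mir546. At 9 p.m. it was at 0, 259.6 and 49.2 FPKM in TRAP and at or next to 0 in the supernatant, the reverse of 9 a.m. (interaction, limma, adjusted p = 0.0236, and 0.138 with a pseudocount of 0.1). For Malat1, Rpph1, Rprl3 and Fth1 the interaction did not pass (limma, adjusted p = 0.988 for each), which does not show that their difference was the same at both times.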

How the data were processed

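The deposited FPKM values were made by the authors, who aligned single-end reads of 50 nt (ribodepleted SMARTer Pico libraries) to mm10 with STAR 2.4.0, ran htseq-count and computed FPKM with Cuffquant. Annotation version, Cufflinks version and strand setting: not given in the sources used here. FPKM holds no depth, so no counting interval could be given and the authors' DESeq2 test could not be repeated. Of 24354 named rows, 27 names turned into dates were left out. Groups came from the sample labels.

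FPKM was tested with limma 3.58.1 in R 4.3.3 after adding 1 and taking log2 (empirical Bayes, variance trend with level), on genes whose mean FPKM over the 6 libraries was above 1, with Benjamini-Hochberg adjustment. Fold changes on this scale understate those of low genes. The test was tried on simulated data. Sums per library were compared with exact permutation tests. Locations and classes came from GENCODE M21 and RefSeq, matched by name (23289 and, with RefSeq, 24233 genes). Rows at 0 may be failed estimates.

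The labels number animals 1 to 3 in each fraction, so same-numbered libraries may be TRAP and supernatant of 1 pool. Their deviations from the group means correlated at -0.01, -0.06 and -0.03, and those of other pairs at -0.01 to 0.05. The methods name no block, so the main fit and the permutation tests took the libraries as unpaired. A block of same-numbered libraries was an alternative.

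The genes named were those called, the 10 of lowest p in each direction among those without overlap, the 4 most abundant of each list, the 3 most abundant of each RNA class, genes the study drew from its TRAP data, and Foxj1 and Rpl10a. List members without overlap, marker genes, overlapping genes and Mir7686 were added after their values were seen. The members and the 25 lists were chosen with earlier results of these data known. Alternatives covered pseudocount, filter, scaling, variance, the block, a fit of 12 libraries and each library left out. Counts without overlap, the length groups, sums without Malat1, Cdr1 or Mir7686 and the 9 p.m. comparison were chosen after seeing the data. Some transporter genes are not reported here. Plots used matplotlib 3.10.9.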

Additional observations from a re-analysis of the deposited data

Results flagged for a closer look

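Mir546 stood out because the difference between fractions changed between times: the log2 fold change of TRAP against supernatant at 9 p.m. minus that at 9 a.m. was 15.31 ± 2.01 (SE, limma interaction over 12 libraries, adjusted p = 0.0236). Its size depends on the pseudocount, since each fraction was at or next to 0 at one of the times. Of 6 libraries at 9 p.m., 2 TRAP libraries held the row above 1 FPKM.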

How the results depend on the processing

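The count of genes called lower was 5, and 3 with a pseudocount of 0.1 or no filter, 0 among coding genes rescaled (4 of the 5 called genes are noncoding and leave this fit), 1 without an intensity trend and 3 to 10 with 1 library left out (10 without TRAP replicate 2, 3 without supernatant replicate 1 or 3). The count called higher was 0, and 1 with robust empirical Bayes (Uqcrb); with 1 library left out it was 0 to 1 (Mir6240 without TRAP replicate 2, Mt1 without supernatant replicate 1). With the replicate block 5 genes were called lower and 0 higher, and the pairing changed no call at 9 a.m. For the interaction with time it gave 2 calls in place of 1 (Mir546 and Mrpl52), and a pseudocount of 0.1 gave 0. Coding genes held 13.9 percentage points less of FPKM in TRAP (difference -13.9), but 0.511 more once microRNA genes were left out of the sum. Mir546 was called in 15 of 15 alternatives, Malat1 and Rpph1 in 14 of 15 each (adjusted p = 0.483 and 0.341, limma, without an intensity trend), Rprl3 in 10 of 15 and Fth1 in 7 of 16 (adjusted p up to 0.815, limma). Of 83 other list members named, 37 changed sign under at least 1 of 16 alternatives. List medians stayed within 1 SD of the library medians in 205 of 236 values. Depth is unknown, so a value of 0 sets no limit. The cause of these changes was not tested.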
